A study of Homo sapiens with 10 samples.

Results

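SOX genes encode transcription factors that bind DNA through a shared domain, the HMG box. The 9 described here were chosen by name among the 55841 gene identifiers of the count table, as SOX genes known from stem cells and neural cells, namely SOX2, SOX3, SOX4, SOX5, SOX11, SOX12, SOX13, SOX15 and SOX21. All 9 had counts in every library and passed the filter on low counts. RNA of the human embryonic stem cell line HES9, grown on matrigel in mTESR1, was sequenced in 10 libraries. In the labels 5 of them are the nonsorted general population, and 5 are the HHH fraction, which was sorted from such cultures for the highest surface levels of EPCAM, GCTM-2 and CD9. By the labels, batch 1 holds 2 libraries of each population and batch 2 holds 3 of each. The line is a single one, the general population also holds the cells that the sort would select, and no label says whether libraries came from separate cultures, so p-values measure only the spread between these libraries.

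SOX2 is a core factor of pluripotent cells, where it binds DNA side by side with POU5F1 (OCT4). SOX2 and SOX3 belong to the SOXB1 subgroup, which keeps neural progenitors undifferentiated, and SOX21 to the SOXB2 subgroup, which acts mainly as a repressor and counteracts SOXB1 factors. SOX4, SOX11 and SOX12 form the SOXC subgroup of neural and mesenchymal progenitors and young neurons. SOX5 and SOX13 belong to SOXD, whose members lack an activation domain of their own, and SOX15 is the single SOXG gene of mammals.

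Values for one gene are given as CPM, its count relative to the TMM-scaled size of the library, and levels are compared between genes only as RPKM, which are CPM per kilobase of annotated exon. Libraries held 47242595 to 78503395 counts. The 10 most abundant genes took 18.2% to 23.7% of the counts in batch 1 and 7.65% to 11.5% in batch 2. EPCAM, on which the cells were sorted, was higher in HHH (log2 fold change 0.41, SE 0.08, adjusted p = 0.00645 by edgeR's quasi-likelihood test), while for CD9 the log2 fold change was 0.29 (SE 0.12, adjusted p = 0.195). The pluripotency markers POU5F1, NANOG, LIN28A, DNMT3B and TDGF1 summed to 3621 or more CPM in the general libraries and to 3521 or more in HHH.

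The HMG box makes these genes alike in sequence, and the DNA that encodes its start is shown to compare them. The 27 bases below were read from GRCh38 in the direction of transcription, 5′ to 3′, with the bases that differ from SOX2 in capitals.
SOX2: cggcccatgaatgccttcatggtgtgg
SOX3: cggcccatgaaCgccttcatggtAtgg
SOX21: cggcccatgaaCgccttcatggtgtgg
SOX15: cggccGatgaaCgcGttcatggtgtgg
SOX4: cgAcccatgaaCgccttcatggtgtgg
SOX11: cggccGatgaaCgcGttcatggtAtgg
SOX12: AggccGatgaaCgcAttcatggtgtgg
SOX5: cgTccAatgaatgccttcatggtgtgg
SOX13: AggcccatgaaCgccttcatggtgtgg
SOX21 differed from SOX2 at 1 of the 27 bases, SOX3, SOX4, SOX5 and SOX13 at 2 each, SOX15 at 3, and SOX11 and SOX12 at 4 each. The stretches lie at chr3:181712487-181712513 (plus strand) for SOX2, chrX:140504614-140504640 (minus) for SOX3, chr13:94711996-94712022 (minus) for SOX21, chr17:7589500-7589526 (minus) for SOX15, chr6:21594715-21594741 (plus) for SOX4, chr2:5692872-5692898 (plus) for SOX11, chr20:326048-326074 (plus) for SOX12, chr12:23543284-23543310 (minus) for SOX5 and chr1:204123705-204123731 (plus) for SOX13. Each is coding sequence inside an exon. Over the 79 residues of the box, SOX2 was 92.4% identical to SOX21, 89.9% to SOX3, 63.3% to SOX4 and 53.2% to SOX5. SOX4 was 91.1% identical to SOX11, and SOX5 93.7% to SOX13. Over whole transcripts, 1 for each gene, the longest run of bases shared exactly by a pair was 60 bases, in SOX2 and SOX21. It was 35 or fewer in the other pairs. How the authors assigned fragments from such a run is not given in the sources used here, and SOX2 was 88.6 to 660 times as abundant per length as SOX21 in the HHH libraries, so low counts of SOX21 are uncertain to that extent.

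In the general libraries SOX2 was the most abundant of the 9 per length, at 57.8 to 120.5 RPKM, followed by SOX4 at 37.8 to 47.04 RPKM and SOX11 at 15.9 to 18.0 RPKM, and these 3 ranges did not overlap. SOX3 (6.70 to 11.1 RPKM), SOX13 (4.86 to 7.86 RPKM) and SOX12 (3.12 to 8.98 RPKM) came next with ranges that overlapped each other. SOX15 lay at 0.984 to 1.86 RPKM and SOX5, the lowest, at 0.108 to 0.190 RPKM. SOX21 had no settled place, with 0.346 to 0.373 RPKM in the general libraries of batch 1 and 5.49 to 6.62 RPKM in those of batch 2.

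**Figure D1:**
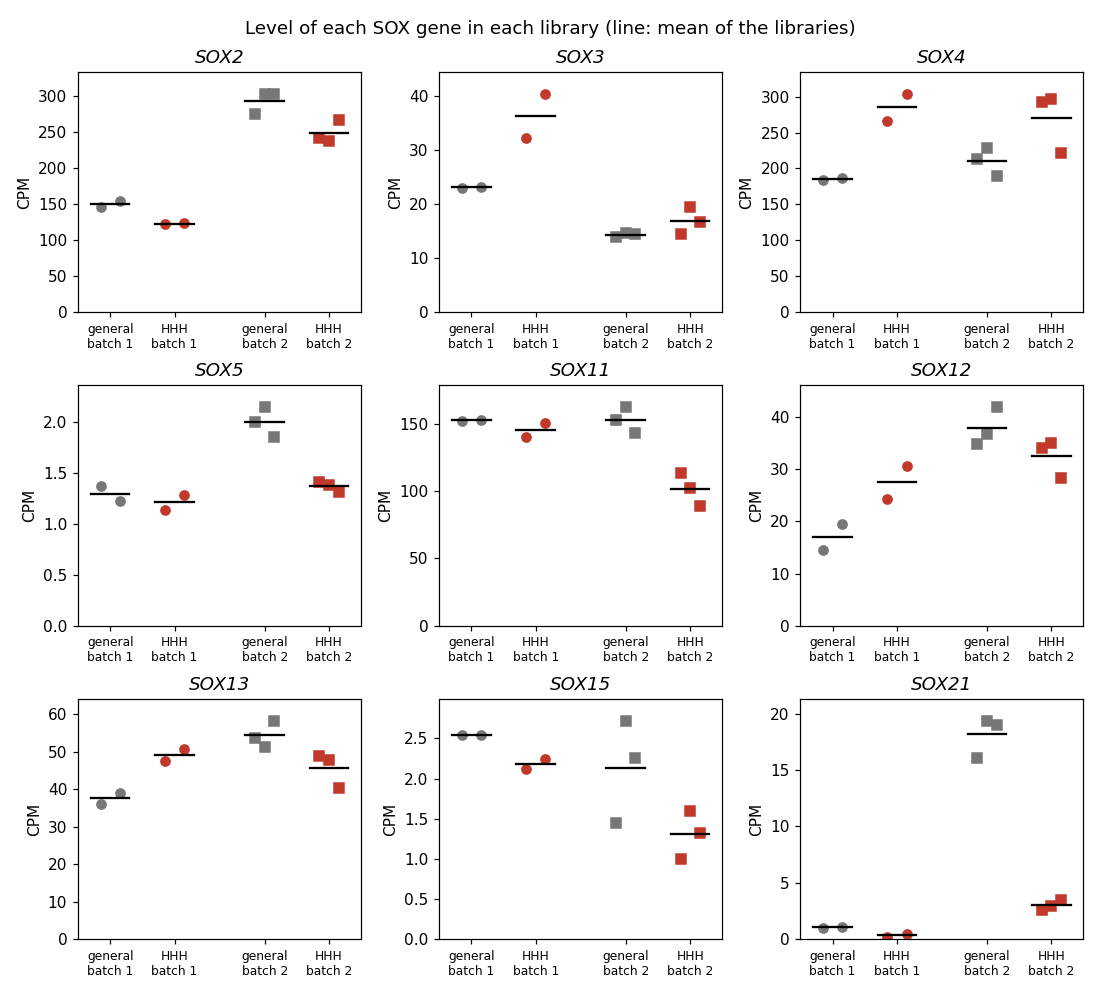
Level of each SOX gene (CPM, linear axis from 0) in the 10 libraries, by population and batch; each point is 1 library and each line the mean of its group. In batch 2 SOX21 lies at 16.0 to 19.4 CPM in general and at 2.59 to 3.50 CPM in HHH. SOX4 is above 220 CPM in all 5 HHH libraries, and also in replicate 2 of general batch 2 (229 CPM). The populations overlap for SOX4 in batch 2.

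Whether the HHH fraction differs from the general population was asked with batch as a term in the model, over all 23552 genes tested, with an adjusted p under 0.05 as the threshold for a call. SOX2, SOX11 and SOX21 were lower in HHH, which is 3 of 9 members, where 3.89% of all genes tested were called lower. SOX3 and SOX4 were higher, 2 of 9, where 1.94% of all genes were called higher. SOX5, SOX12, SOX13 and SOX15 did not pass. With a fold change over 1.5 asked for as well, only SOX21 remained, 1 of 9 against 2.98% of all genes. In these bulk samples fewer cells that carry an RNA and less of that RNA per cell cannot be told apart.

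SOX21 was the member that moved most. Its counts were 66 and 65 in the general libraries of batch 1 and 10 and 19 in the HHH libraries, and 924, 1103 and 1141 in the general libraries of batch 2 against 151, 172 and 198 in HHH. In CPM these are 1.01 and 1.09 against 0.214 and 0.435 in batch 1, and 16.0, 19.4 and 19.0 against 2.59, 2.97 and 3.50 in batch 2. Every HHH library was below every general library of its batch, and general libraries of batch 2 held 17.3 times the mean level of those of batch 1. In the model SOX21 changed by log2 -2.42 (SE 0.17, adjusted p = 1.31e-06), a 5.36-fold lower level in HHH. By fold change SOX21 was the 16th lowest of the 23552 genes tested. Within batch 2 the log2 fold change was -2.59 (SE 0.13, adjusted p = 9.74e-08), and within batch 1, with 2 libraries against 2 and few counts, -1.70 (SE 0.40, adjusted p = 0.135). The difference between the batches did not pass (log2 -0.89, SE 0.36, adjusted p = 0.210), and SOX21 was called whichever library was left out.

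SOX21 is a single-exon gene on the minus strand of chromosome 13, and the RefSeq start of the long noncoding SOX21-AS1 lies 171 bases from its own, on the opposite strand. The 250 bases before the SOX21 start, chr13:94712546-94712795 in RefSeq's GRCh38.p14 table, read 5′ to 3′ on the minus strand, with the bases from the SOX21-AS1 start to the SOX21 start in capitals, are shown because RefSeq places the starts of both RNAs here. GENCODE 44 has 3 transcripts of SOX21-AS1, of which 1 begins at that base, and the longest begins at 94703454, beyond the far end of SOX21.
SOX21 upstream: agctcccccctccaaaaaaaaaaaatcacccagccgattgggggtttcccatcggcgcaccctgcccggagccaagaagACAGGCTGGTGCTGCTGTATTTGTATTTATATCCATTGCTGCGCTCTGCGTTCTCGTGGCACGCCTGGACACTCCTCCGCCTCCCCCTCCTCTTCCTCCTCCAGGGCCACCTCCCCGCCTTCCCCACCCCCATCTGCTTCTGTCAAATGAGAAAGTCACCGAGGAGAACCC
SOX21-AS1 had 0.552 and 0.486 CPM in the general libraries of batch 1 and 0.193 and 0.229 CPM in HHH. In batch 2 it had 5.56, 6.34 and 7.22 CPM in general against 1.41, 1.87 and 1.89 CPM in HHH. As for SOX21, no HHH library reached a general library of its batch, and the level in batch 1 was low in both populations. The log2 fold change of SOX21-AS1 was -1.78 (SE 0.16, adjusted p = 9.62e-06). The ratio of SOX21 to SOX21-AS1 in CPM was 1.83 to 3.06 in the general libraries and 1.11 to 1.90 in HHH. This ratio leaves aside the exon lengths, 2924 bases for SOX21 and 4889 for SOX21-AS1. It thus compares libraries and not the levels of the genes. The exons of the genes share no base in GENCODE 44. The strand setting of the counting is not given in the sources used here, so reads of one outside its annotated exons may have counted for the other.

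SOX2 itself was lower in HHH by a small step. It had 145 and 154 CPM in the general libraries of batch 1 and 122 and 123 CPM in HHH, and 274, 303 and 301 CPM in the general libraries of batch 2 against 241, 237 and 266 CPM in HHH. The populations did not overlap in either batch, though the batches lay further apart than the populations did. In the model SOX2 changed by log2 -0.26 (SE 0.07, adjusted p = 0.0375), a level 1.20 times as high in general as in HHH. With the replicate number as a block, which pairs libraries of the same number and batch, the log2 fold change stayed at -0.26 and the adjusted p was 0.0773. Leaving out 1 library ended the call in 8 of 10 fits, with the highest adjusted p of 0.127 without replicate 2 of HHH batch 2. It stayed only without replicate 3 of HHH batch 1 (0.0466) or replicate 3 of HHH batch 2 (0.0150). Within batches the adjusted p was 0.316 in batch 1 and 0.0856 in batch 2.

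The long noncoding SOX2-OT, in an intron of which SOX2 lies on the same strand, was lower as well. Its levels were 2.22 and 2.72 CPM in the general libraries of batch 1 against 2.04 and 1.65 CPM in HHH, and 6.49, 7.86 and 6.55 CPM in general against 3.86, 4.55 and 4.97 CPM in HHH of batch 2. The populations were apart in both batches. The log2 fold change of SOX2-OT was -0.57 (SE 0.12, adjusted p = 0.0118), with a blocked adjusted p of 0.0140.

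**Figure D2:**
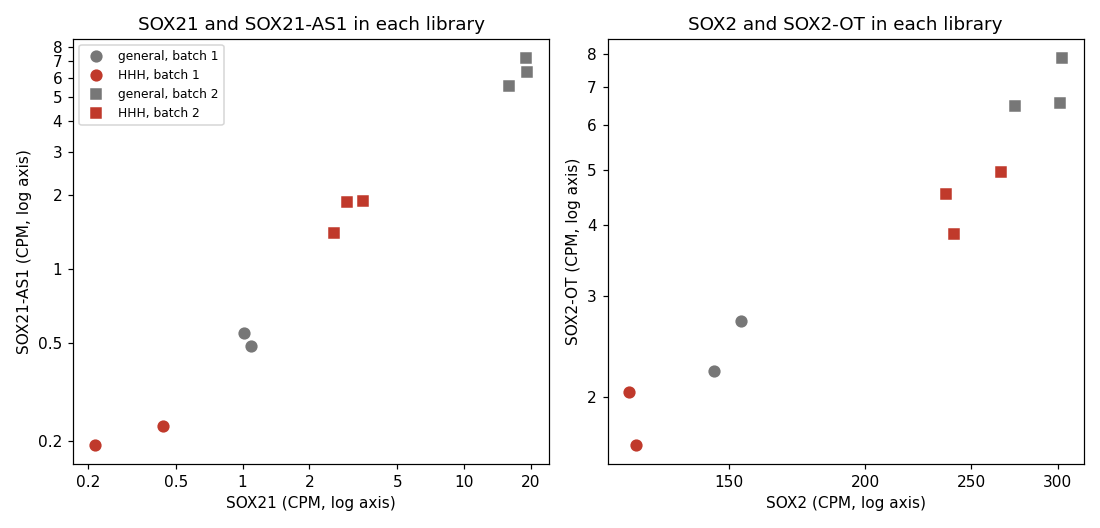
SOX21 against SOX21-AS1 (left) and SOX2 against SOX2-OT (right) in CPM on log axes; each point is 1 library, circles are batch 1, squares batch 2, grey general and red HHH. In both panels the HHH libraries sit to the lower left of the general libraries of their batch.

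SOX3, the other SOXB1 gene, went the opposite way from SOX2. It had 23.0 and 23.1 CPM in the general libraries of batch 1 and 32.1 and 40.4 CPM in HHH. In batch 2 it had 14.0, 14.5 and 14.4 CPM in general and 14.4, 19.4 and 16.6 CPM in HHH. The populations were apart in batch 1, and in batch 2 replicate 1 of HHH lay among the general libraries. Over both batches SOX3 rose by log2 0.41 (SE 0.10, adjusted p = 0.0350). With the replicate block it was 0.29 (adjusted p = 0.0822). The call held in 3 of 10 fits that each left out 1 library, which were replicate 3 of HHH batch 1 (0.0461), replicate 1 of HHH batch 2 (0.0160) and replicate 3 of HHH batch 2 (0.0393), and the adjusted p of SOX3 reached 0.112 without replicate 2 of HHH batch 2.

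The general libraries held 5.24 and 5.53 times as much SOX2 as SOX3 per length in batch 1, and 16.3 to 17.4 times in batch 2. In HHH the ratio was 3.14 and 2.54 in batch 1 and 10.2 to 13.9 in batch 2, below every general library of the same batch. Per length, SOX2 to SOX21 stood at 167 and 164 in general batch 1 against 660 and 330 in HHH, and at 18.2 to 19.9 in general batch 2 against 88.6 to 108 in HHH.

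SOX4 rose and its close relative SOX11 fell. SOX4 had 184 and 187 CPM in the general libraries of batch 1 and 267 and 304 CPM in HHH, and 213, 229 and 190 CPM in the general libraries of batch 2 against 293, 297 and 222 CPM in HHH. Replicate 3 of HHH batch 2 lay within the general range of its batch, and the other HHH libraries were above it. SOX4 rose by log2 0.46 (SE 0.10, adjusted p = 0.01005), or 1.38-fold, and 0.39 with the replicate block (adjusted p = 0.0202). It was called whichever library was left out, with an adjusted p of 7.84e-04 to 0.0395. Within the batches it did not pass, at 0.62 (SE 0.12, adjusted p = 0.0706) in batch 1 and 0.35 (SE 0.12, adjusted p = 0.0635) in batch 2.

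SOX11 had 152 and 153 CPM in the general libraries of batch 1 and 140 and 150 CPM in HHH, and 153, 162 and 144 CPM in the general libraries of batch 2 against 113, 102 and 88.7 CPM in HHH. HHH was below general in both batches, narrowly in batch 1 and clearly in batch 2. Over both batches SOX11 changed by log2 -0.39 (SE 0.10, adjusted p = 0.0390). In batch 1 it was -0.08 (SE 0.11, adjusted p = 0.814) and in batch 2 -0.60 (SE 0.10, adjusted p = 0.00188), and the difference between the batches did not pass (log2 -0.52, SE 0.15, adjusted p = 0.114). The fit over both batches lost the call in 7 of 10 fits without 1 library. It kept it without either general library of batch 1 (0.0304 and 0.0310) or replicate 3 of HHH batch 1 (0.0133), and the adjusted p of SOX11 reached 0.120 without replicate 2 of HHH batch 2.

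Set against each other per length, SOX4 stood at 2.24 to 2.61 times SOX11 in the 5 general libraries and at 3.52 to 5.38 times in the 5 HHH libraries, with no overlap in either batch. In HHH of batch 1 SOX4, at 54.7 and 62.5 RPKM, passed SOX2, at 48.4 and 49.1 RPKM, whereas SOX2 remained the most abundant in the other 8 libraries.

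**Figure D3:**
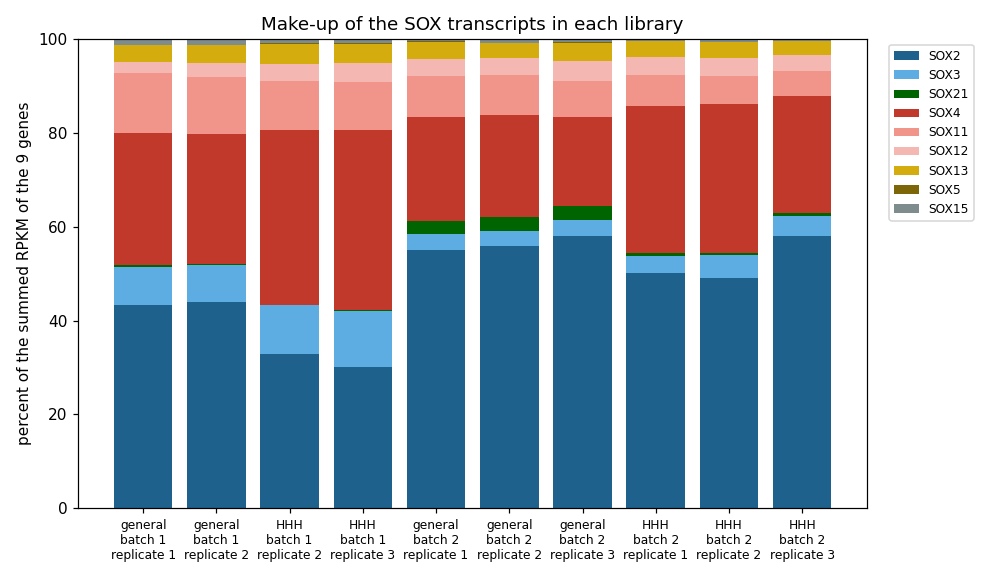
Share of each SOX gene in the summed RPKM of the 9 genes (percent, stacked bars, 1 bar per library; blues and dark green are SOXB, reds and pinks SOXC, yellows SOXD, grey SOXG). The SOXC share is 42.8% to 43.2% in general and 51.3% to 52.7% in HHH of batch 1.

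The subgroups can be set against each other as shares of the summed RPKM of the 9 genes. SOXB (SOX2, SOX3 and SOX21) made up 51.8% and 52.1% in the general libraries of batch 1 and 43.4% and 42.1% in HHH. In batch 2 it made up 61.3%, 62.1% and 64.5% in general and 54.3%, 54.5% and 62.9% in HHH. SOXC made up 34.5%, 33.8% and 30.9% in general and 41.8%, 41.6% and 33.6% in HHH of batch 2. The shares of the populations were apart in batch 1, and in batch 2 replicate 3 of HHH lay in the general range for both subgroups.

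SOX12, the third SOXC gene, moved in opposite directions in the batches. It had 14.6 and 19.5 CPM in the general libraries of batch 1 and 24.4 and 30.7 CPM in HHH, but 34.9, 36.8 and 42.0 CPM in the general libraries of batch 2 against 34.2, 35.1 and 28.3 CPM in HHH. The populations were apart in batch 1 and overlapped in batch 2. For SOX12 the log2 fold change was 0.69 (SE 0.18, adjusted p = 0.168) in batch 1 and -0.23 (SE 0.10, adjusted p = 0.156) in batch 2, and over both 0.14 (SE 0.16, adjusted p = 0.658). The difference between the batches was log2 -0.91 (SE 0.20, adjusted p = 0.0554).

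SOX13 followed the same pattern, with 36.0 and 39.2 CPM in general against 47.5 and 50.7 CPM in HHH of batch 1, and 53.6, 51.2 and 58.3 CPM in general against 49.0, 47.8 and 40.3 CPM in HHH of batch 2. The populations were apart in each batch, with HHH above in batch 1 and below in batch 2. For SOX13 the log2 fold change was 0.38 (SE 0.12, adjusted p = 0.239) in batch 1, -0.26 (SE 0.09, adjusted p = 0.0854) in batch 2 and 0.00 (SE 0.11, adjusted p = 0.996) over both, and the difference between the batches was log2 -0.64 (SE 0.15, adjusted p = 0.0649).

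Libraries also differed in how counts followed base composition. The longest annotated transcripts of SOX3, SOX12, SOX13 and SOX15 are 60.6% to 63.3% GC, those of the other 5 members 39.2% to 55.6%. Slopes were fitted to log2 CPM minus the mean over the batch. The slopes of a batch therefore cannot all have the same sign. Relative to that mean, HHH libraries of batch 1 rose with the GC content of genes, by 0.014 and 0.066 for each 10 points of GC. General libraries of batch 1 changed by -0.053 and -0.027. In batch 2 the slopes had the opposite signs, 0.037 to 0.108 in general and -0.119 to -0.020 in HHH. With a GC trend removed from each library the difference between the batches was log2 -0.65 for SOX12 (adjusted p = 0.208) and -0.43 for SOX13 (adjusted p = 0.225). In the same fit the difference between the batches went from log2 -0.42 to -0.10 for SOX3 and from -0.49 to -0.23 for SOX15. It went from -0.45 to -0.65 for SOX5, from -0.89 to -0.78 for SOX21 and from -0.26 to -0.20 for SOX4. For SOX11 it stayed at -0.52, and for SOX2 it went from 0.05 to 0.09. SOX3 was higher and SOX15 lower in HHH in both batches. The part of base composition in the values of the members was not tested beyond these fits.

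SOX5 and SOX15 were rare, with 53 to 122 and 58 to 166 counts. SOX5 had 1.36 and 1.22 CPM in the general libraries of batch 1 and 1.14 and 1.28 CPM in HHH, and 2.00, 2.14 and 1.85 CPM in the general libraries of batch 2 against 1.41, 1.38 and 1.31 CPM in HHH. The populations overlapped in batch 1 and were apart in batch 2, where the log2 fold change was -0.55 (SE 0.16, adjusted p = 0.0355). That call was lost in each of the 6 fits of batch 2 without 1 library (adjusted p = 0.0648 to 0.0895). Over both batches the change of SOX5 was -0.38 (SE 0.14, adjusted p = 0.134), and -0.43 with the GC trend removed (adjusted p = 0.0985).

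SOX15 had 2.54 and 2.55 CPM in the general libraries of batch 1 and 2.12 and 2.24 CPM in HHH, and 1.44, 2.72 and 2.25 CPM in the general libraries of batch 2 against 0.996, 1.59 and 1.33 CPM in HHH. HHH was lower in batch 1, and the ranges overlapped in batch 2. For SOX15 the log2 fold change was -0.51 (SE 0.18, adjusted p = 0.130), and with the replicate block SOX15 passed (-0.58, adjusted p = 0.0422). With the block and the GC trend removed as well, SOX15 did not pass (-0.46, adjusted p = 0.0549). SOX15 shares 2.39% of its exonic bases with MPDU1 on the opposite strand.

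**Figure D4:**
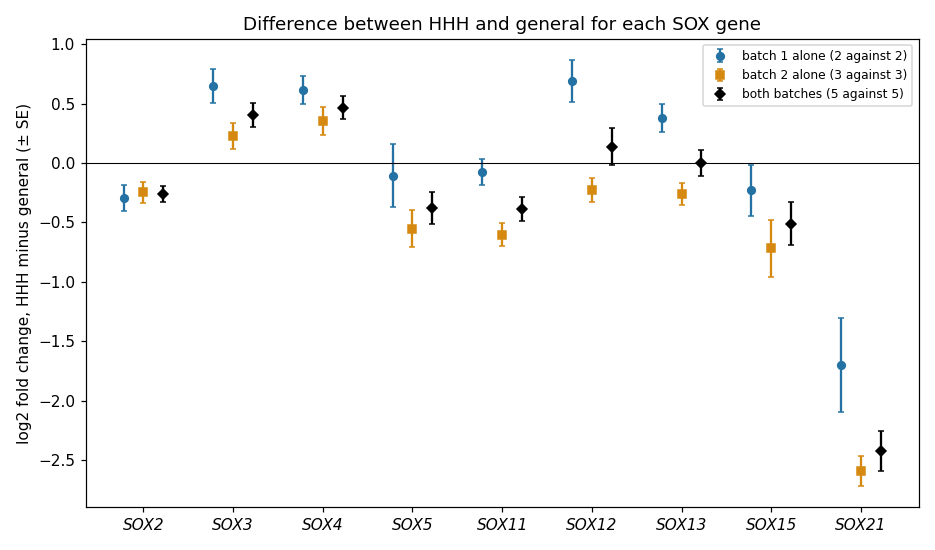
Log2 fold change of HHH against general for each SOX gene, with bars of 1 SE, from edgeR fits of batch 1 alone (2 libraries against 2), batch 2 alone (3 against 3) and both with batch as a term (5 against 5). SOX21 lies far below the others in all 3 fits, and SOX12 and SOX13 lie on opposite sides of 0 in the batches.

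The other fits give the frame for these counts. With the replicate block 4 of 9 members were called, SOX4, SOX11, SOX15 and SOX21, where 6.95% of all genes were. With the GC trend removed as well, 5 of 9 were called, and 2450 of all genes tested. These 5 were SOX2 (adjusted p = 0.0453), SOX3 (0.00652), SOX4, SOX11 and SOX21. In batch 1 alone edgeR's quasi-likelihood test called 0 of 9, where 0.573% of all genes were called. An unadjusted p under 0.05 was found there for 6 of 9 members and for 2974 of all 23720 genes tested. In batch 2 alone it called SOX5, SOX11 and SOX21, 3 of 9, where 13.2% of all genes were called, and of these SOX11 and SOX21, but not SOX5, were called without any 1 of the 6 libraries. For the difference of the HHH effect between batches 0 of 9 passed, where 0.777% of all genes did. For that difference 5 of 9 members, and 4447 of all 23552 genes tested, had an unadjusted p under 0.05.

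Counted without a model, HHH was below general with no overlap in both batches for SOX2, SOX11 and SOX21, 3 of 9, as for 5.42% of all genes tested. It was above in both batches for 0 of 9, as for 3.93% of all genes. Populations were apart, in either direction, for 8 of 9 members in batch 1 (43.5% of all genes) and for 5 of 9 in batch 2 (36.2% of all genes).

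Of 10 other SOX genes, 6 were tested. SOX1, the third SOXB1 gene, and SOX10, a neural crest factor, were lower, 2 of 6, where 3.89% of all genes were called lower. Of the 6, 0 were higher, where 1.94% of all genes were. The median log2 fold change of the 6 was -0.05, beside 0.02 over all genes tested. SOX1 had 5 to 33 counts a library. SOX1 lay at 0.383 and 0.151 CPM in general against 0.129 and 0.252 CPM in HHH of batch 1, where the populations overlapped, and at 0.347, 0.579 and 0.484 CPM in general against 0.155, 0.0865 and 0.124 CPM in HHH of batch 2, where they did not. The log2 fold change of SOX1 was -1.39 (SE 0.37, adjusted p = 0.0391), and the call held in only 2 of 10 fits without 1 library, without replicate 2 of general batch 1 (0.00867) or replicate 3 of HHH batch 1 (0.00941), with an adjusted p of up to 0.123 without replicate 2 of HHH batch 2. For SOX10 the log2 fold change was -0.84 (SE 0.19, adjusted p = 0.0190), and the call held in 5 of 10 fits without 1 library. It was lost without any of the general libraries of batch 2 (0.0507 to 0.0582), replicate 1 of HHH batch 2 (0.0546) or replicate 2 of HHH batch 2 (0.0689). SOX6, SOX7, SOX8 and SOX9 did not pass, and SOX14, SOX17, SOX18 and SOX30 had at most 5 counts in any library and were not tested.

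Among 7 factors that bind beside SOX proteins, 6 were tested. NANOG and POU3F1 were higher in HHH, 2 of 6, where 1.94% of all genes were called higher. For POU5F1, the partner of SOX2 in pluripotent cells, the change of 0.13 on the log2 scale did not pass (SE 0.09, adjusted p = 0.417). POU5F1 had 542 and 531 CPM in general against 461 and 532 CPM in HHH of batch 1, where the populations overlapped, and 539, 499 and 470 CPM in general against 609, 606 and 641 CPM in HHH of batch 2, where they did not. Its log2 fold change was -0.12 in batch 1 (adjusted p = 0.748) and 0.29 in batch 2 (adjusted p = 0.0532), and the difference between the batches did not pass (log2 0.41, SE 0.14, adjusted p = 0.167). NANOG had 30.3 and 33.4 CPM in general against 42.3 and 39.4 CPM in HHH of batch 1, and 33.1, 37.8 and 28.2 CPM in general against 48.9, 46.8 and 43.4 CPM in HHH of batch 2. All HHH libraries were above the general ones of their batch, with a log2 fold change of NANOG of 0.44 (SE 0.08, adjusted p = 0.00572). POU3F1, a partner of SOX2 in neural cells, had 11.2 and 11.5 CPM in general against 21.7 and 25.3 CPM in HHH of batch 1, but 9.46, 10.3 and 10.6 CPM in general against 12.9, 12.0 and 9.44 CPM in HHH of batch 2. The populations of batch 2 overlapped. For POU3F1 the log2 fold change over both batches was 0.53 (SE 0.15, adjusted p = 0.0497), with the replicate block 0.36 (adjusted p = 0.158), and the call was lost in 9 of 10 fits without 1 library (adjusted p up to 0.129, without general batch 1 replicate 1). POU3F1 stayed called only without replicate 3 of HHH batch 2 (0.0116).

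Of 6 genes with a known composite site for a SOX and a POU factor, all tested, LEFTY1 and NANOG were higher and 0 were lower. Of all genes 1.94% were called higher. The median log2 fold change of the 6 was 0.21. NANOG and POU5F1 stand both in this list and among the partner factors above, so the lists are not separate. LEFTY1, an inhibitor of Nodal signaling, had 7.23 and 16.0 CPM in general against 26.8 and 25.9 CPM in HHH of batch 1, and 9.55, 9.95 and 8.74 CPM in general against 17.5, 19.2 and 17.8 CPM in HHH of batch 2. LEFTY1 was thus above general in every HHH library of either batch (log2 fold change 1.04, SE 0.15, adjusted p = 8.79e-04). FGF4, UTF1 and FBXO15 had at most 38 counts and did not pass. Of 5 neural genes that SOX factors regulate, NES, TUBB3, DCX, MAP2 and TEAD2, 0 passed over both batches by edgeR's test. With the replicate block MAP2 did (log2 fold change -0.46, adjusted p = 0.0399). In batch 2 alone NES (-0.53, adjusted p = 0.0194) and MAP2 (-0.41, adjusted p = 0.0387) were called lower, where 13.2% of all genes were called. TUBB3, DCX and TEAD2 were not. NES was apart in both batches, with HHH above general in batch 1 (0.22, adjusted p = 0.521) and below it in batch 2.

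Most markers of other cells that an embryonic stem cell culture could hold stayed under 1 CPM in every library, the exceptions being PAX6, DCX, STMN2, SOX10, FOXA2 and KRT7. Of 6 neural progenitor markers, SOX1 included, 5 stayed under 1 CPM in all libraries, and the list summed to 1.43 to 1.81 CPM in general and 1.09 to 1.33 CPM in HHH. Of 4 neuronal markers ELAVL4 had no count in any library, which at this depth allows up to 0.0460 to 0.0687 CPM, and NEUROD1 had at most 3 counts. STMN2, which is active in neurons, was lower in HHH (log2 fold change -1.63, SE 0.20, adjusted p = 1.92e-04), while DCX, at 3.89 to 9.26 CPM over all libraries the larger part of the list, did not pass (log2 0.20, SE 0.11, adjusted p = 0.331). The neuronal list summed to 5.78 to 10.9 CPM in general and 6.09 to 10.4 CPM in HHH. Of 4 neural crest markers 3 stayed under 1 CPM, and the sum of the list, in which SOX10 is counted, was 1.32 to 2.74 CPM in general and 0.849 to 1.30 CPM in HHH. Of 4 amnion and trophoblast markers KRT7 was lower in HHH (log2 fold change -0.76, SE 0.12, adjusted p = 0.00149) and the other 3 stayed under 1 CPM. The list summed to 5.58 to 10.4 CPM in general and 3.43 to 5.43 CPM in HHH. Mesendoderm markers summed to at most 1.16 CPM in any library. Among them TBXT (Brachyury), too low for the test over both batches, had 11 and 8 counts in general against 2 and 3 in HHH of batch 1, and 28, 31 and 25 counts in general against 7, 9 and 7 in HHH of batch 2. For TBXT, HHH was lower in both batches without overlap, and in batch 2 alone TBXT was called (log2 fold change -1.84, SE 0.32, adjusted p = 0.00269). MIXL1, the only mesendoderm marker tested over both batches, went the other way. In CPM its HHH libraries lay above the general ones in both batches without overlap. The counts of MIXL1 were 19 and 18 in general against 24 and 15 in HHH of batch 1. In batch 2 they were 30, 25 and 26 in general against 32, 31 and 30 in HHH. The separation in CPM thus depended on the scaling of the libraries. The change of MIXL1 did not pass (log2 fold change 0.33, SE 0.20, adjusted p = 0.363). For EOMES and GSC, which were not tested, the populations overlapped in both batches. Endoderm markers summed to at most 1.72 CPM, nearly all of it FOXA2 in batch 1, with 0.107 and 0.906 CPM in general against 1.67 and 1.37 CPM in HHH (log2 fold change 1.60, SE 0.65, adjusted p = 0.359). The part of the neuronal, neural progenitor, neural crest, mesendoderm, endoderm and amnion markers in the levels of SOX21, SOX11, SOX2, SOX3 and SOX4 was not tested.

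Some pairs of members varied together across libraries, and others did so weakly. With batch means removed, log2 CPM over the 10 libraries correlated at r = 0.99 between SOX21 and SOX21-AS1, 0.96 between SOX5 and SOX11, 0.92 between SOX12 and SOX13, 0.90 between SOX2 and SOX21, and -0.90 between SOX2 and SOX4. Among the weak pairs, r was -0.05 between SOX12 and SOX21, 0.14 between SOX12 and SOX15, and -0.15 between SOX2 and SOX13. These points share libraries, scaling and the contrast of populations itself, so they are descriptions.

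The genes most like each member were sought among 15663 with a mean of at least 1 CPM, by Pearson's r of the same values over the 10 libraries. For SOX21 they were FZD8, a receptor for WNT proteins (r = 0.996), SEMA6D, a semaphorin (0.991), and LHX5, a forebrain homeobox factor (0.991). For SOX2 they were IGFBP3 (0.97), FAM120C (0.95) and SGMS2 (0.95). SOX4 was followed by PDGFB (0.99), MPP2 (0.98) and USP6NL (0.97), and SOX11 by PRR14L (0.99), ATP2C2 (0.98) and GRAMD1B (0.98). For SOX3 the nearest was UBALD2 (0.97), for SOX5 MFHAS1 (0.99), for SOX12 ZC3H4 (0.98), for SOX13 CAPN15 (0.99) and for SOX15 EGLN3 (0.97). LHX5 fell further than SOX21 itself, from a mean of 6.82 CPM in general to 0.145 CPM in HHH (log2 fold change -5.57), SEMA6D from 14.7 to 3.38 CPM (log2 fold change -2.28) and FZD8 from 14.4 to 7.17 CPM (log2 fold change -1.01), all called lower.

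Promoter windows, of 250 bases before and 50 after the RefSeq start, were at hand for 7 of the 9 members, SOX11 and SOX15 being the others. The SOX motif ACAAAG, sought on both strands, was in the window of SOX2 alone, 1 of 7, and in 16.1% of all 35116 windows. The POU octamer ATGCAAAT was in that of SOX12 alone, and in 1.77% of all windows. Neither motif overlaps the other. The stretch upstream of SOX21 shown above holds neither, which says only that these letters are not in this window.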

How the data were processed

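RNA-seq was measured in 10 libraries (TruSeq, total RNA) of the stem cell line HES9, as labelled. The study's text gives WA09 for its transcriptome work, and how that name relates to the label is not resolved here, nor is a protein kinase C inhibitor in the design text that no label carries. The authors deposited whole fragment counts per Ensembl gene, without normalization, and a table of log2 values, a score after TMM scaling and RPKM conversion, used only as an alternative. The submitters' processing notes name CASAVA 1.8.2, R 3.2.2, limma 3.26.9 and GRCh37, with no roles, and the counting tool is not given in the sources used here. Symbols, exon lengths and GRCh38 coordinates came from GENCODE 44 by gene identifier (88.5% matched), since the tables hold no coordinates. Population, batch and replicate were read from the titles. Genes were kept by filterByExpr (minimum count 10), scaled by TMM and tested in edgeR 4.0.16 (R 4.3.3), whose quasi-likelihood F test was run two-sided on a model of batch and population. P-values were Benjamini-Hochberg adjusted over all genes tested. SE is the fold change divided by the root of F. The scripts were tested on simulated data. Same-numbered libraries of batch 2 deviated together in all 3 pairs (r = 0.113 to 0.239), so a replicate block was fitted as well. Batch 1 has only 1 such pair, whose r of 0.113 equals that of an unmatched pair because groups of 2 were centred, and tells nothing; its other 2 libraries have no partner and add nothing to the blocked contrast. Other scalings, filters, GC correction, leaving out each library, DESeq2 1.42.0 and limma 3.58.1 were tried. With 47242595 to 78503395 counts a library, 3 counts are 0.0460 to 0.0687 CPM, which covers counting error only. The members and gene lists were chosen, and the named genes fixed (all members, list genes that passed or whose role bears on a member, and the 3 genes most like each member), with earlier results of these data known.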

Additional observations from a re-analysis of the deposited data

Results flagged for a closer look

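Whether a library stood far from the others could not be tested usefully, since a batch holds only 2 or 3 libraries of a population and the 5 of a population span both batches. In 2 genes outside the 9 the HHH effect differed between batches in edgeR's test of the interaction, SOX8 (log2 fold change lower in batch 2 by -0.86, adjusted p = 0.0497) and POU3F1 (-0.88, adjusted p = 0.0456). SOX8 had 3.16 and 3.66 CPM in general against 5.53 and 5.72 CPM in HHH of batch 1, and 6.77, 6.37 and 7.07 CPM in general against 6.32, 6.47 and 5.62 CPM in HHH of batch 2. In SOX12 and SOX13 every HHH library was above the general mean in batch 1 and below it in batch 2. Their difference between batches was -0.91 for SOX12 (adjusted p = 0.0554) and -0.64 for SOX13 (adjusted p = 0.0649) on the log2 scale, and neither passed.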

How the results depend on the processing

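The count of members called, 5 in the fit with batch, was 0 with no batch term, 3 with library sizes alone, 2 with limma on the deposited log2 values, 0 in batch 1 alone, 3 in batch 2 alone, 1 at an adjusted p under 0.01, 1 with a fold change over 1.5 asked for and 2 to 5 without 1 library. Over all genes the count of 1373 became 168 with no batch term, 2423 with no filter, 2450 with the GC trend removed and the replicate block, 136 in batch 1, 3166 in batch 2, 616 at 0.01, 701 with the fold change and 808 to 2347 without 1 library. Within batch 1 members called were 1 with library sizes alone and 0 to 2 without 1 library, within batch 2 they were 5 with the replicate block. The 10 alternatives for the difference between batches gave the main count of 0. The block pairs libraries of the same number, and beside the changes given for SOX2, SOX3, SOX15, POU3F1 and MAP2 it changed the call of TDGF1 among the listed genes (adjusted p = 0.0342, and 0.0749 without the block) and no other. SOX12 was lower with the block (-0.089) and in batch 2 (-0.23), and, over fits without 1 library, ran from -0.010 (without general batch 1 replicate 1) to 0.24. SOX13, at 0.00, ran at -0.019 with no batch term, -0.12 with the replicate block, -4.0e-04 with RLE scaling, -0.021 with upper quartile scaling, -0.036 with library sizes alone, -0.0096 with a minimum of 1 CPM in 5 libraries, -0.0071 with GC trend and block, -0.26 in batch 2, -5.4e-05 by DESeq2, -0.0037 by voom, -0.14 on the deposited log2 values and -0.079 to 0.081 without 1 library. The cause of these changes was not tested. The directions of SOX2, SOX3, SOX4, SOX5, SOX11, SOX15 and SOX21 were the same in all 25 alternatives run for each. Counts of 10 and 19 limit SOX21 in HHH of batch 1.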
